A study of Mus musculus with 2 samples.

Results

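Transcripts of 10 genes that mark mast cells, granulocytes and platelets were followed in the limb of the mouse embryo. The mast cell genes were Cpa3, Cma1, Mcpt4, Tpsb2, Ms4a2 and Hdc, the granulocyte genes Mpo, Elane and Prtn3, and the platelet gene Pf4. They were chosen by name, and all 10 had a row among the 43346 gene rows of the tables. The samples were limbs of C57BL/6J embryos at embryonic day 14.5, pooled from male and female littermates, from which polyadenylated RNA above 200 nucleotides was sequenced with strand kept, as paired reads. There was 1 group with 2 biological replicates and no treatment or allele in the labels, so what can be compared is the level of the genes within the tissue and between the 2 libraries. A single donor identifier is shared by the replicates, and it is not stated in the labels if they stem from different litters, or which limbs were dissected. Any p-value below covers counting error alone, with no estimate of the spread between samples. Differences between this pair of samples are possibly technical, and a test on their reads compares those libraries, not conditions.

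Mast cells are tissue-resident blood cells whose progenitors leave the sites of embryonic blood formation and mature in skin and connective tissue, including those of the limb. They store histamine and a set of proteases (carboxypeptidase A3, chymases and tryptases) on the proteoglycan serglycin, and release them when IgE bound to its high-affinity receptor is crosslinked. Neutrophil precursors make the primary (azurophil) granule proteins myeloperoxidase, neutrophil elastase and proteinase 3 at the promyelocyte stage, before the secondary and tertiary granule proteins. Platelets carry platelet factor 4 in their alpha granules, where megakaryocytes load it, and mouse fetal macrophages are also known to transcribe Pf4.

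The gene rows summed to 110172148 and 103363136 estimated counts in replicates 1 and 2, and a gene at 0 was read as having up to 3 counts, or 0.0272 and 0.0290 CPM (counts relative to library size). This limit is a fixed convention, apart from the two-sided Poisson intervals below, and both cover counting error only. Tissue identity was checked on a list of limb genes, and 9 of 9 (among them Col2a1, Twist1 and Krt14, for cartilage, mesenchyme and skin) stood at 26.1 TPM or more in both libraries. Blood was present as well: 12 of 12 erythroid genes reached 1 TPM in both libraries and summed to 20897 and 21642 TPM. In whole tissue, fewer cells of a type and less RNA per cell cannot be told apart, so every level below is one of the limb and not of a cell.

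Of the 10 genes, 7 reached 1 TPM, a unit of abundance relative to the length of the transcript and the size of the library. They did so in both libraries, where 33.8% of all gene rows and 62.8% of protein-coding genes did. Cpa3 and Cma1 stood at the top, Pf4, Tpsb2, Hdc and Prtn3 followed in that order, and this order was the same in both libraries. Mcpt4, Mpo, Ms4a2 and Elane lay near 1 to 2 TPM on average and changed places between the libraries. Mpo and Elane fell short of 1 TPM in replicate 1, and Ms4a2 in replicate 2. The median of the 10 mean levels was 13.9 TPM, beside 17.5 TPM for all 15055 genes averaging 1 TPM or more. Among those genes Cpa3 was above 82.2%, Cma1 above 80.7% and Pf4 above 70.7%, while Mcpt4 was above 9.45% and Mpo above 7.84%. The mast cell genes took 80.3% and 72.5% of the summed TPM of the 10 genes in replicates 1 and 2, the granulocyte genes 4.47% and 8.56%, and Pf4 15.2% and 18.9%. Prtn3, whose transcripts are described below, made up most of the granulocyte part, at 8.58 and 14.2 TPM.

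**Figure D1:**
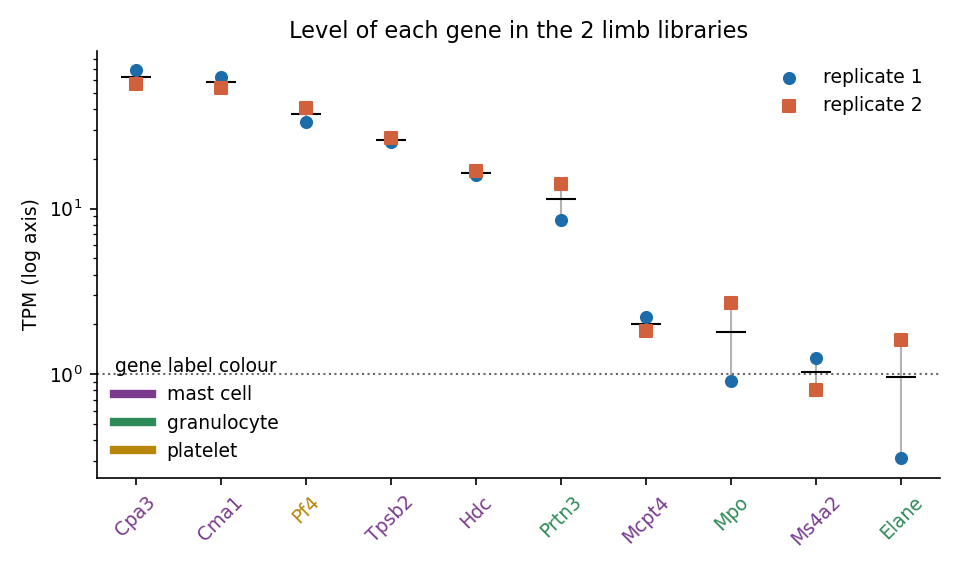
Level of each of the 10 genes in TPM (log axis), with a circle for replicate 1, a square for replicate 2, a black line at their mean and label colours for the lineage; the dotted line is 1 TPM. Cpa3 and Cma1 lie above 50 TPM in both libraries, and the vertical gap between libraries is widest for Mpo and Elane.

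Sequences at the start sites are given here for the members at the head of the mast cell group, for the neighbouring granulocyte pair Prtn3 and Elane, and for Pf4, because these are the genes whose levels or library ratios the results turn on. A RefSeq promoter window of 300 bases (250 before the start and 50 after it, GRCm38.p6) was matched by symbol for 9 of the 10 genes and not for Tpsb2. Each line shows the 120 bases before the first annotated start in that window, 5′ to 3′ on the strand of the gene (for Prtn3 the start of its coding transcript Prtn3-201), with capitals on a letter match to 1 of 2 motifs. The GATA factor motif was searched as AGATAA with its close form AGATAG, and as TGATAA with its close form TGATAG. The motif of the myeloid factor PU.1 was searched as GAGGAA. Both strands were searched, so that CTATCT in Cma1 is a match on the other strand, as is TTCCTC in Pf4, and no match overlaps another.
Cpa3 promoter, chr3:20242182-20242301 (-): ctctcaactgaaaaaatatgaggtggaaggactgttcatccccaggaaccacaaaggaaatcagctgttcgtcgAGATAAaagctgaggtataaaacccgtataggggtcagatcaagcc
Cma1 promoter, chr14:55944676-55944795 (-): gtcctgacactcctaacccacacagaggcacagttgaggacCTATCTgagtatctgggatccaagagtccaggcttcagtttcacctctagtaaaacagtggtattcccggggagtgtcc
Prtn3 promoter, chr10:79879494-79879613 (+): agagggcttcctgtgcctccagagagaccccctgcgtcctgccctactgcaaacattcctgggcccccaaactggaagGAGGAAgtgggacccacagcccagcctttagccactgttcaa
Elane promoter, chr10:79886127-79886246 (+): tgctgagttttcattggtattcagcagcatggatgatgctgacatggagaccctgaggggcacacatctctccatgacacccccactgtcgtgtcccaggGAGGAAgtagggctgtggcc
Pf4 promoter, chr5:90772315-90772434 (+): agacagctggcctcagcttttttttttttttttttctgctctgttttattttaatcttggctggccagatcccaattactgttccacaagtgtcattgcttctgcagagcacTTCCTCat
Over the whole 300-base windows, the GATA letters occurred in 5 of 5 mast cell promoters (Cpa3, Cma1, Mcpt4, Hdc and, 3 times, Ms4a2), in none of the 3 granulocyte promoters, and in Pf4, 36 bases after its start. The PU.1 letters occurred in 3 of 3 granulocyte promoters (Mpo 2 times), in none of the 5 mast cell promoters, and in Pf4. The Mpo window lies at the start of Mpo-201 and does not reach the start of Mpo-203, the leading transcript described below. None of the 9 windows held the E-box letters CATGTG, or the palindromic form CACGTG, searched for the mast cell factor MITF. Among all 32851 promoter windows of this length, 29.8% held the GATA letters, 28.3% the PU.1 letters and 20.4% the E-box letters. A match describes the letters in the window and is neither a binding site nor a cause of a level.

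Of the mast cell granule proteases, Cpa3 and Cma1 were the most abundant members of the whole set. Cpa3 (ENSMUSG00000001865.2, chr3:20215620-20242181, minus strand) encodes carboxypeptidase A3, which trims peptides in the secretory granule. It stood at 68.6 TPM in replicate 1 and 56.6 TPM in replicate 2, a mean of 62.6 ± 8.46 TPM (SD, n = 2), from 6396 and 4832 counts. Cma1 (ENSMUSG00000022225.6, chr14:55941451-55944675, minus strand) encodes mast cell protease 5, an alpha-chymase stored together with carboxypeptidase A3. It stood at 62.7 and 53.4 TPM, a mean of 58.1 ± 6.55 TPM (SD, n = 2), from 4115 and 3163 counts. Both genes were higher in replicate 1. On the log2(TPM + 1) scale they differed from each other by 0.10 in a limma fit, with a 95% interval from -0.40 to 0.61, which includes 0. That interval takes the 2 genes as independent. Within the libraries, Cpa3 was 1.09 and 1.06 times as high as Cma1 by TPM in replicates 1 and 2.

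Tpsb2 (ENSMUSG00000033825.9, chr17:25366305-25369098, plus strand) encodes mast cell protease 6, the beta-tryptase of connective tissue mast cells. Its level was 25.4 and 26.7 TPM, a mean of 26.03 ± 0.919 TPM (SD, n = 2). Cpa3 exceeded Tpsb2 by 1.23 on the log2(TPM + 1) scale (95% interval 0.75 to 1.70). Mcpt4 (ENSMUSG00000061068.6, chr14:56059629-56062313, minus strand) encodes the main beta-chymase of connective tissue mast cells. It reached 2.21 and 1.82 TPM, a mean of 2.02 ± 0.276 TPM (SD, n = 2), from 131 and 97 counts. Cpa3 was 31.0 and 31.1 times as high as Mcpt4 by TPM in replicates 1 and 2, and Cma1 28.4 and 29.4 times. The 2 chymase genes of the set, which lie in 1 gene cluster, therefore differed by 4.29 on the log2(TPM + 1) scale (95% interval 3.82 to 4.76).

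Most other genes of the clusters around these members were low. In the chymase and granzyme cluster on chromosome 14, which spans 320.81 kb from Cma1 to Gzmb, 2 of 15 protein-coding genes reached 1 TPM in both libraries, and these were Cma1 and Mcpt4. Mcpt8, a protease of mouse basophils, came next at 1.30 and 0.73 TPM. Mcpt1 and Mcpt2, proteases of mucosal mast cells, stood at 0.39 in both libraries and at 0.69 and 0.85 TPM. Ctsg, cathepsin G, stood at 0.25 and 0.18 TPM, and Mcpt9 and Gzmn had no counts in either library. In the tryptase cluster on chromosome 17, 3 of 5 genes reached 1 TPM in both libraries. Beside Tpsb2 these were Tpsg1, the transmembrane gamma-tryptase, at 9.42 and 11.9 TPM, and Tpsab1, mast cell protease 7, at 1.73 and 1.20 TPM. C57BL/6 mice are known to carry a splice defect in Tpsab1. Tpsb2 was 14.7 and 22.2 times as high as Tpsab1 by TPM.

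**Figure D2:**
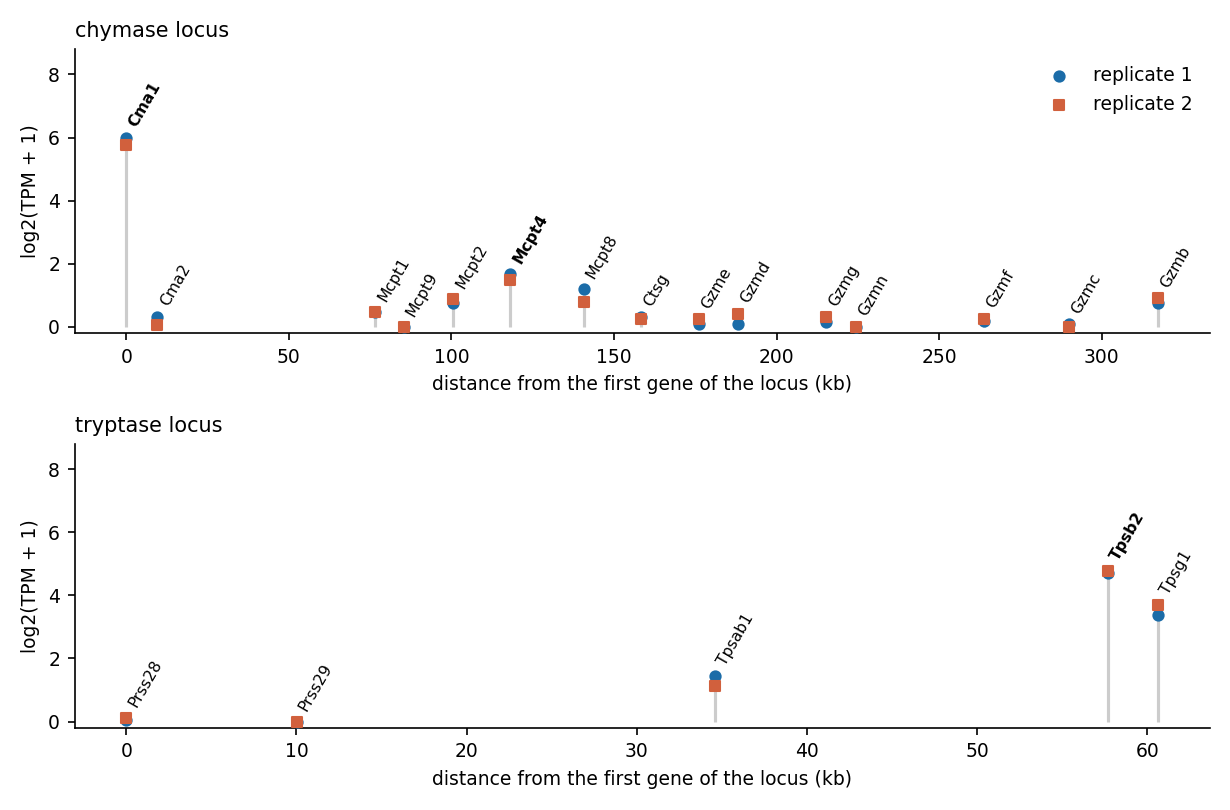
Level of every protein-coding gene in the chymase and tryptase clusters as log2(TPM + 1), against the distance in kb from the first gene of the cluster, with a circle for replicate 1 and a square for replicate 2; members of the set are in bold. Cma1, Tpsb2 and Tpsg1 rise above the rest of their clusters, and Mcpt4 is the only other gene of the chymase cluster above 1 TPM in both libraries.

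Hdc (ENSMUSG00000027360.5, chr2:126593667-126619299, minus strand) encodes histidine decarboxylase, the enzyme that makes histamine. It stood at 16.04 and 16.96 TPM, a mean of 16.5 ± 0.651 TPM (SD, n = 2), from 2652 and 2472 counts, with almost no gap between the libraries. Slc18a2, the transporter that loads histamine into granules, stood at 2.02 and 1.90 TPM, and the histamine receptors Hrh1, Hrh2, Hrh3 and Hrh4 at no more than 0.15 TPM in any library; these 5 genes were picked out of their list after their values were seen. Of the 13 genes listed for histamine, leukotriene and prostaglandin metabolism, 7 reached 1 TPM in both libraries, beside 62.8% of protein-coding genes. Highest in the list were Hdc, Alox5ap (15.7 ± 0.877 TPM, the activating protein of 5-lipoxygenase) and Ptgs1 (10.6 ± 1.67 TPM, cyclooxygenase 1) (SD, n = 2).

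Ms4a2 (ENSMUSG00000024680.8, chr19:11615523-11623719, minus strand) encodes the beta chain of the high-affinity IgE receptor. Its level was 1.25 and 0.80 TPM, a mean of 1.02 ± 0.318 TPM (SD, n = 2), from 143 and 75 counts, the lowest of the mast cell genes. Hdc exceeded it by 3.12 on the log2(TPM + 1) scale, the fitted difference of Ms4a2 over Hdc being -3.12 (95% interval -3.58 to -2.66). The other receptor chains were unlike each other in level. Fcer1a, the IgE-binding alpha chain, had 5 and 3 counts (0.11 and 0.07 TPM), and Fcer1g, the gamma chain that macrophages also use, reached 47.4 ± 8.63 TPM (SD, n = 2). Macrophage genes were present beside Fcer1g and Pf4, with 12 of 12 markers above 1 TPM in both libraries and a sum of 203.1 and 224.9 TPM; their part in either level was not tested.

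Among protein-coding genes 62.8% reached 1 TPM in both libraries, and of the 15 listed for mast cell identity and receptors, Ms4a2 included, 9 did. Highest were Fcer1g, Il3ra, the alpha chain of the interleukin 3 receptor, at 15.8 ± 4.03 TPM, and Kitl, the ligand of the receptor Kit, at 12.4 ± 1.60 TPM (SD, n = 2). Kit stood at 11.5 and 12.1 TPM and Gata2, a transcription factor of mast cell and other blood progenitors, at 8.53 and 10.98 TPM; both, and Fcer1a, were chosen after their values were seen. Kit is also a receptor of melanoblasts. Of 6 melanoblast markers 3 reached 1 TPM in both libraries; they summed to 22.8 and 27.8 TPM, of which Sox10, also a Schwann cell gene, made up 16.4 and 21.7 TPM. Their part in the level of Kit was not tested. Mrgprb1 and Mrgprb2, receptors of mature connective tissue mast cells, had no counts in either library. By the fixed convention this allows up to 0.0272 and 0.0290 CPM. The authors' deposited upper bounds in replicates 1 and 2 were wider for Mrgprb1, at 0.255 and 0.304 TPM, than for Mrgprb2, at 0.0213 and 0.0229 TPM. All 8 genes listed for granule storage and protease processing reached 1 TPM in both libraries, led by Ctsl at 92.0 and 67.5 TPM, Serpinb6a at 51.4 and 47.5 TPM and Ext1 at 39.3 and 50.6 TPM, genes that many cell types transcribe. Srgn, the serglycin core protein, stood at 12.2 and 9.13 TPM, and Ctsc, the peptidase that activates granule serine proteases, at 16.1 and 14.9 TPM, both chosen after their values were seen.

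The granulocyte genes were lower than the leading mast cell genes and further apart between the libraries. Prtn3 (ENSMUSG00000057729.8, chr10:79874476-79883174, plus strand) encodes proteinase 3, a serine protease of azurophil granules. It stood at 8.58 and 14.2 TPM, a mean of 11.4 ± 3.94 TPM (SD, n = 2), from 417 and 599 counts. Mpo (ENSMUSG00000009350.9, chr11:87793581-87804413, plus strand) encodes myeloperoxidase, which makes hypochlorous acid. It stood at 0.91 and 2.69 TPM, a mean of 1.80 ± 1.26 TPM (SD, n = 2), from 120 and 352 counts. Elane (ENSMUSG00000020125.6, chr10:79886247-79888215, plus strand) encodes neutrophil elastase and begins 3073 nucleotides after Prtn3 ends. It stood at 0.31 and 1.61 TPM, a mean of 0.960 ± 0.919 TPM (SD, n = 2). Its counts were 17 (exact Poisson 95% interval 9.90 to 27.2) and 78 (61.7 to 97.3), so the intervals of the libraries do not overlap.

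All 3 granulocyte genes were higher in replicate 2, and Prtn3 was the highest of them in both libraries. Prtn3 was 27.7 and 8.79 times as high as Elane by TPM in replicates 1 and 2, and on the log2(TPM + 1) scale Elane over Prtn3 was -2.70 (95% interval -3.50 to -1.91). Mpo and Elane differed by 0.52 with an interval from -0.37 to 1.41, which includes 0. That interval takes the 2 genes as independent, although both were higher in replicate 2. Within the libraries, Mpo was above Elane in each, at 0.91 against 0.31 TPM in replicate 1 and 2.69 against 1.61 TPM in replicate 2. Cpa3 exceeded Mpo by 4.58 (95% interval 3.86 to 5.29), or 75.3 and 21.04 times by TPM in the replicates, so the size of the gap between the mast cell and the granulocyte gene rested on the library.

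The gene level of Prtn3 came mostly from a transcript that is not annotated as coding. The noncoding processed transcript Prtn3-202 (chr10:79874476-79883041, 4 exons) held 56.8% and 51.2% of the gene in replicates 1 and 2, at 4.87 and 7.24 TPM. The coding transcript Prtn3-201 (chr10:79879614-79883174, 5 exons) held 24.8% and 25.9%, at 2.13 and 3.67 TPM. The authors' deposited bounds on these TPM values, 4.06 to 5.49 against 1.58 to 2.48 in replicate 1 and 6.24 to 8.10 against 2.98 to 4.25 in replicate 2, do not overlap in either library. Prtn3-202 begins 5138 nucleotides before Prtn3-201, and both enter the same exon at chr10:79881036-79881177, so the junction sequence tells them apart. In the lines below, from the GENCODE M21 transcripts and 5′ to 3′, the last 15 bases of the upstream exon are in capitals and the first 15 of the shared exon in lower case.
Prtn3-201, exon 2 into the shared exon: CTGCCTGCAGGACATctcctggcagcttgt
Prtn3-202, exon 1 into the shared exon: GAGTCCGTTTCCATGctcctggcagcttgt
The first exon of Prtn3-202 overlaps the 5′ end of Plppr3, a gene on the other strand, by 159 nucleotides. Plppr3 stood at 182 and 267 TPM. The libraries keep strand, but no source used here says whether the counting used it, and the part of Plppr3 reads in Prtn3-202 was not tested. Counted over coding transcripts alone, Prtn3 had a mean of 2.90 TPM, and Prtn3-201 was 6.87 and 2.28 times as high as Elane.

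In Mpo and Ms4a2, too, the leading transcript was not the first of the annotated coding forms. Mpo-203 held 63.7% and 81.3% of Mpo, at 0.58 and 2.19 TPM, whereas Mpo-201 held 8.46% and 1.57%, at 0.08 and 0.04 TPM. The 2 coding transcripts start from different first exons 628 nucleotides apart and join the same exon at chr11:87794537-87794614, shown by their junctions with the upstream exon in capitals.
Mpo-201, exon 1 into the shared exon: AGTTGACAGTGTCAGagatgaagctactct
Mpo-203, exon 1 into the shared exon: ATTTATTTATTATATagatgaagctactct
Ms4a2-204, which extends 1434 nucleotides beyond Ms4a2-201 at its 3′ end, led its gene with 49.96% and 45.7%, at 0.63 and 0.37 TPM. Ms4a2-202 held 40.4% of the gene in replicate 1 and 9.45% in replicate 2, on 30.8 and 4.13 estimated counts, so these shares are imprecise at this depth. Hdc-201, the full coding form, held 94.0% and 90.4% of Hdc, and Hdc-204, with a retained intron, 3.18% and 2.70%. The leading transcript was coding in 9 of the 10 genes, the exception being Prtn3. Cma1, Mcpt4, Tpsb2, Elane and Pf4 had a single transcript each, and Cpa3-201 took 99.4% and 100% of Cpa3. Read in the direction of transcription, no stretch of 1 read length in the leading transcripts was shared with another gene's transcript in 9 members. In Ms4a2-204, 12 of 2291 were shared with Ms4a4b. The opposite strand was not searched, so the overlap of Prtn3-202 with Plppr3 lay outside this search.

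**Figure D3:**
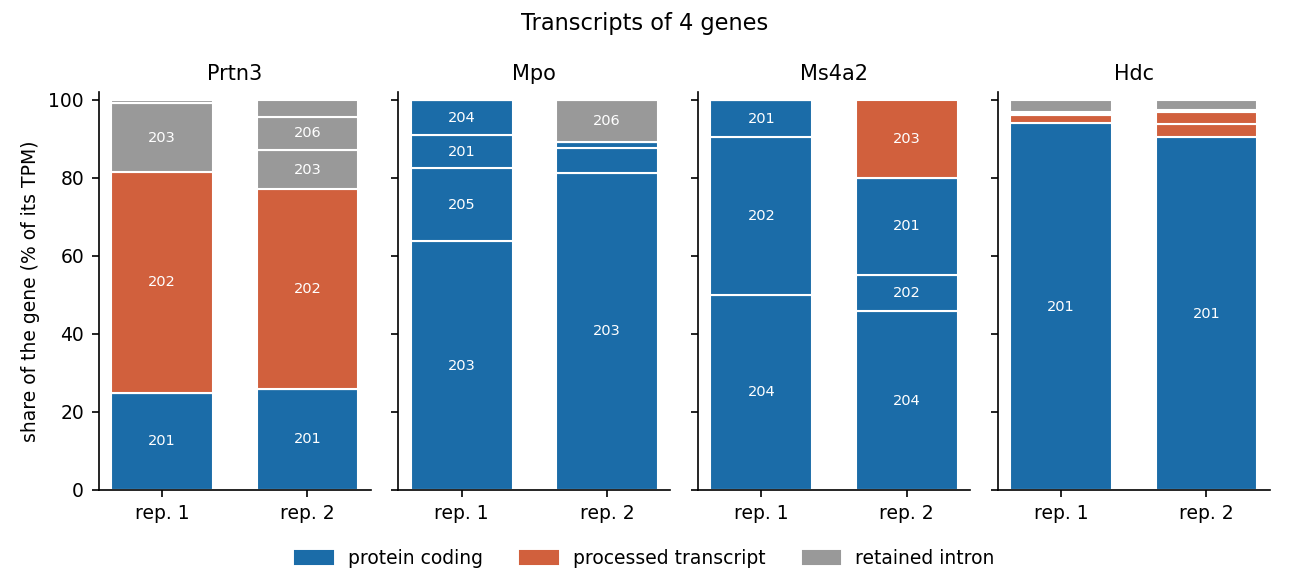
Share of each annotated transcript in its gene (percent of the gene's TPM, as deposited) for Prtn3, Mpo, Ms4a2 and Hdc in each replicate, coloured by transcript type and labelled with the transcript number. In Prtn3 the noncoding transcript 202 is the tallest segment in both replicates, and in Hdc the coding transcript 201 fills over 90% of both bars.

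Pf4 (ENSMUSG00000029373.6, chr5:90772435-90773383, plus strand) encodes platelet factor 4, a chemokine that binds heparin. It stood at 33.3 and 40.8 TPM, a mean of 37.0 ± 5.26 TPM (SD, n = 2), from 967 and 1024 counts, and was higher in replicate 2. Cpa3 exceeded Pf4 by 0.74 on the log2(TPM + 1) scale (95% interval 0.24 to 1.25), and Pf4 exceeded Mpo by 3.83 (3.12 to 4.54). The other platelet genes were lower than Pf4. Ppbp, the neighbouring platelet chemokine, chosen after its values were seen, stood at 1.35 and 2.42 TPM, so Pf4 was 24.7 and 16.8 times as high in replicates 1 and 2. Apart from Pf4 the highest of the 25 listed platelet and megakaryocyte genes were Gp1bb, a chain of the von Willebrand factor receptor that shared reads with another gene, at 8.72 and 14.1 TPM, and Vwf, von Willebrand factor, which endothelium also makes, at 9.28 and 11.8 TPM. Within the list 17 of 25 reached 1 TPM in both libraries, 16 of 24 without Pf4, beside 62.8% of protein-coding genes.

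The 9 neighbour pairs were set by the order of mean TPM in these same libraries. The direction of each step therefore follows from that order, and the intervals do not allow for it. On the log2(TPM + 1) scale the interval left out 0 in 4 of 9 cases. The steps from Cma1 to Pf4 (0.64, 95% interval 0.14 to 1.13), Pf4 to Tpsb2 (0.49, 0.02 to 0.95), Tpsb2 to Hdc (0.63, 0.20 to 1.06) and Prtn3 to Mcpt4 (2.00, 1.43 to 2.57) left out 0. Hdc and Prtn3 did not (0.54, -0.02 to 1.10), and neither did the steps among Mcpt4, Mpo, Ms4a2 and Elane, which ranged from 0.12 to 0.40. The steps from Cma1 to Pf4 and from Pf4 to Tpsb2, and the difference of Cpa3 and Pf4, no longer left out 0 when low genes were kept in the fit. The step from Prtn3 to Mcpt4 used the gene level of Prtn3, most of it noncoding. Over coding transcripts alone Prtn3 stood at 2.13 and 3.67 TPM in replicates 1 and 2, beside 2.21 and 1.82 TPM for Mcpt4. No interval was computed at that level. In CPM, which holds the difference in transcript length, the steps from Pf4 to Tpsb2 and from Tpsb2 to Hdc turned, to -0.66 (-1.10 to -0.22) and -0.61 (-1.04 to -0.19). The 10 pairs chosen for comparison were picked with earlier results of these data known. Of these, 8 had an interval that left out 0, but 7 with low genes kept in the fit and 10 in CPM.

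Between the libraries, 3 of the 6 mast cell genes were higher in replicate 1 and the 4 granulocyte and platelet genes in replicate 2. For each gene the rounded counts were set against the TMM-scaled library sizes in an exact binomial test (two-sided), with Benjamini-Hochberg adjustment over 20396 genes. By this test 3 of the 10 were higher in replicate 1, 4 in replicate 2 and 3 were not called, where 30.2% of all genes tested were called higher in replicate 1 and 30.3% higher in replicate 2. A count of 7 called members is thus near the 60.5% of all genes tested that were called, and the sizes below say more than the calls. Over all genes tested the log2 ratio of replicate 2 over replicate 1 had a median of -0.00497 and quartiles at -0.29 and 0.23.

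Cpa3 and Cma1 were higher in replicate 1 by small amounts that their counts resolve. The log2 ratio was -0.29 for Cpa3 (95% interval -0.34 to -0.24, exact binomial adjusted p = 1.66e-25) and -0.27 for Cma1 (-0.33 to -0.20, exact binomial adjusted p = 2.39e-14), that is 1.22 and 1.20 times as many scaled counts in replicate 1. Ms4a2 moved the same way by -0.81 (-1.24 to -0.40, exact binomial adjusted p = 0.000137). Mcpt4 had a ratio of -0.32 that its counts do not separate from 0 (-0.71 to 0.07, exact binomial adjusted p = 0.144). Tpsb2 at 0.04 (-0.06 to 0.14) and Hdc at 0.01 (-0.07 to 0.09) were not called either. The sum over the 6 mast cell genes was 176 and 156 TPM, 1.13 times as high in replicate 1.

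Prtn3, Mpo and Elane were higher in replicate 2, in rising order of size. The log2 ratio was 0.64 for Prtn3 (95% interval 0.45 to 0.82, exact binomial adjusted p = 1.19e-11), 1.66 for Mpo (1.36 to 1.98, exact binomial adjusted p = 7.32e-31) and 2.28 for Elane (1.54 to 3.16, exact binomial adjusted p = 2.94e-11). In scaled counts these are 1.55, 3.17 and 4.85 times. Mpo and Elane were the members past 2-fold in favour of replicate 2, a size that 2.76% of all genes tested and 3.03% of the 3867 genes with 50 to 500 counts in total reached. Mcpt4 and Ms4a2 lie in the same count range. Of these 4 genes 3 were called, where 35.4% of the genes in that range were, and none passed 2-fold in favour of replicate 1, as 7.63% of that range and 5.26% of all genes tested did. Pf4 was called higher in replicate 2 as well, by 0.20 (0.07 to 0.32, exact binomial adjusted p = 0.00485). The sum over the granulocyte genes was 9.80 and 18.4 TPM, 1.88 times as high in replicate 2. Prtn3 made up 8.58 and 14.2 TPM of it, with 24.8% and 25.9% of Prtn3 in coding transcripts.

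**Figure D4:**
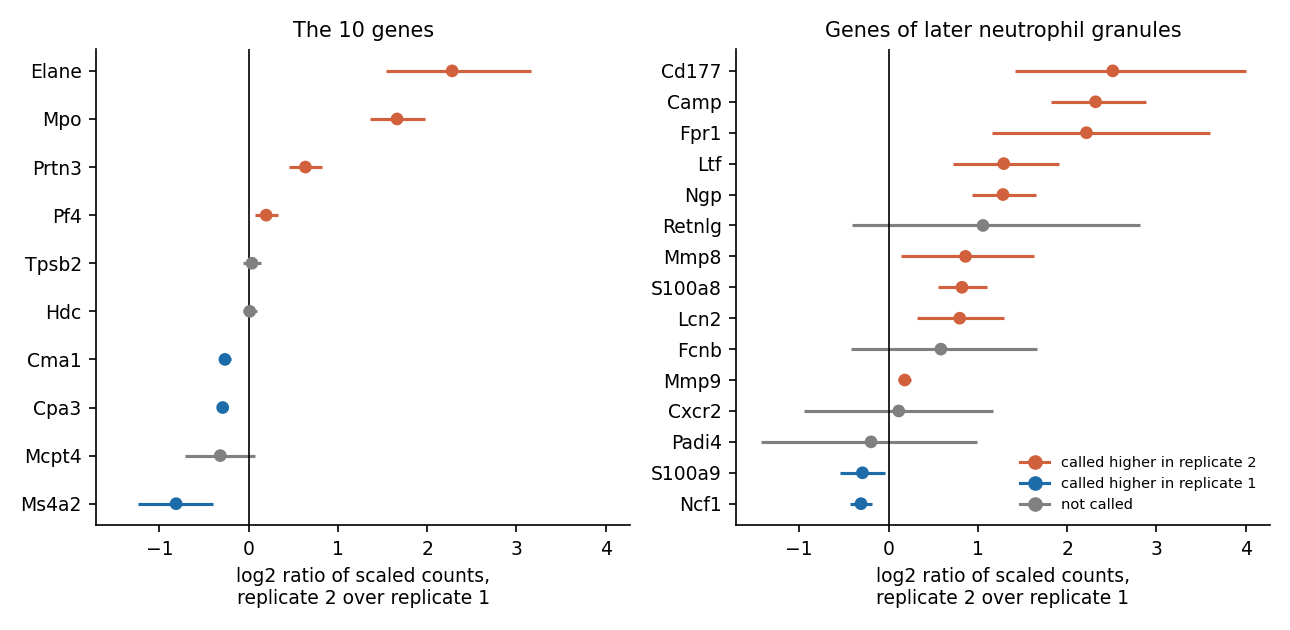
Log2 ratio of TMM-scaled counts, replicate 2 over replicate 1, for the 10 genes on the left and for the tested genes of later neutrophil granules and mature neutrophils on the right; bars are 95% intervals from counting error, and colours give the call of the binomial test. Elane, Mpo, Camp and Cd177 lie right of 1, and Ms4a2, Cpa3 and Cma1 lie left of 0.

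Lists of related genes gave the setting of these ratios. Of 15 tested genes listed for later neutrophil granules and mature neutrophils, 9 were called higher in replicate 2, 2 higher in replicate 1 and 4 were not called, with a median log2 ratio of 0.82. Over all genes tested 30.3% were called higher in replicate 2 and 30.2% in replicate 1, and the median was -0.00497. The list's highest genes were S100a8, a calcium-binding alarmin, at 12.5 and 25.5 TPM, Mmp9, gelatinase B, which osteoclasts also make, at 13.99 and 16.6 TPM, and S100a9, the partner of S100a8, at 13.1 and 11.6 TPM. S100a8 and Mmp9 were called higher in replicate 2 and S100a9 higher in replicate 1. Camp, the antimicrobial cathelicidin of secondary granules, had 38 and 177 counts, and Ngp, another secondary granule protein, 95 and 214; both, and Cd177, a neutrophil surface protein, were chosen after their values were seen. Of the 16 listed genes 7 reached 1 TPM in both libraries, beside 62.8% of protein-coding genes. Mpo, Elane and Prtn3 were listed with other genes for primary granules and progenitors. Of 8 others tested, 2 were called higher in replicate 1, none in replicate 2 and 6 were not called, with a median of -0.07. Among the 8, Ctsg had 15 and 10 counts, Prss57 10 and 3 and Cebpe 15 and 21, so only a large ratio could be called for them. These 3 were named after their values were seen. The 8 also include Cebpa, a transcription factor of granulocyte progenitors that other tissues use too, at 20.1 ± 1.29 TPM, and Spi1, which encodes PU.1, at 11.5 ± 0.382 TPM (SD, n = 2).

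Among the platelet and megakaryocyte genes other than Pf4, 15 of 23 tested were called higher in replicate 2, 1 higher in replicate 1 and 7 were not called, with a median log2 ratio of 0.39; over all genes tested, 30.3% were called higher in replicate 2 and 30.2% in replicate 1. Ppbp, at 89 and 144 counts, was among those higher in replicate 2 (log2 ratio 0.80, exact binomial adjusted p = 7.88e-05). Outside the set, 8 genes listed as mast cell granule proteases were tested. Of these, 3 were called higher in replicate 1, 1 (Tpsg1) higher in replicate 2 and 4 were not called. Their median log2 ratio was -0.23, and the 3 include Mcpt8, named above as a basophil protease. Tpsg1, which starts 175 nucleotides after Tpsb2 ends, had a log2 ratio of 0.29 (exact binomial adjusted p = 0.000943), and Tpsab1 one of -0.75 (exact binomial adjusted p = 9.28e-05). Mast cell identity and receptor genes other than Ms4a2 were called in both directions, 3 higher in replicate 1 and 5 in replicate 2 of 11 tested, with a median of 0.15.

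Genes of other cells that share blood or tissue with these lineages were set beside the ratios. For the calls that follow, the share of all genes tested was 30.3% higher in replicate 2 and 30.2% in replicate 1. Erythroid genes had a median log2 ratio of 0.06, with 6 of 12 called higher in replicate 2 and 3 in replicate 1, and macrophage genes one of 0.12, with 6 of 12 and 4 of 12. Endothelial genes summed to 163 and 160 TPM and had a median log2 ratio of -0.17. Of these 6 genes, 2 were called higher in replicate 2 and 4 in replicate 1. The listed limb genes had a median of 0.24, with 7 of 9 called higher in replicate 2 and 2 in replicate 1. Liver genes, from the main site of granulocyte formation at this age, were present at low level. The 5 listed liver genes summed to 38.1 and 40.1 TPM, with 3 called higher in replicate 2, 1 higher in replicate 1 and 1 not called, and a median log2 ratio of 0.22. The 1 called higher in replicate 1 was Alb, albumin, chosen after its values were seen, at 5.70 and 1.10 TPM, a log2 ratio of -2.39. The part of blood or liver RNA in the ratios of the 10 genes was not tested.

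**Figure D5:**
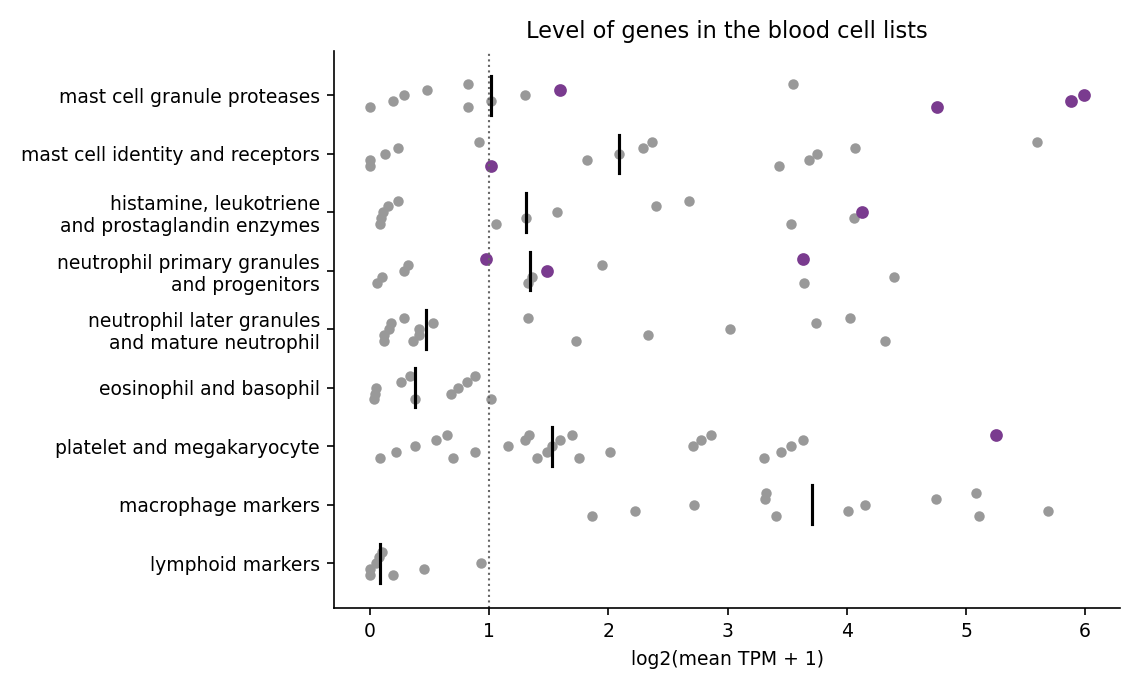
Level of each listed gene as log2(mean TPM + 1), 1 point per gene and 1 row per list, with members of the set in purple, a black line at the median of the list and a dotted line at 1 TPM. Cma1, Cpa3 and Tpsb2 lie far to the right of the median of their protease list, Pf4 is the highest point of the platelet list, and lymphoid genes crowd near 0.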

How the data were processed

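The authors deposited 2 tables for each of the 2 libraries, 1 by gene and 1 by transcript. A text file beside them names mm10 and GENCODE M4 as their basis; the program is not given in the sources used. Per the file headers, the tables hold the expected count of each gene (reads that match several genes are shared among them), TPM, posterior mean TPM with credibility bounds whose level is not stated, FPKM, and the percent of each transcript in its gene. Expected counts were rounded for the test. The posterior mean TPM and the FPKM deposited by the authors served as alternatives only.

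Names and coordinates came from GENCODE M21 (GRCm38, as mm10) by gene identifier; 884 gene rows had no name there. Rows of spike-in, phiX and tRNA (26345) were left out, with 3.73% and 4.30% of counts. All 10 members held whole counts (within 0.005), unlike 3014 gene rows. TMM factors (edgeR 4.0.16) were 1.01 and 0.992. With no second group, no model of conditions was fitted. Counts were compared by an exact conditional binomial test for genes with at least 10 counts in total, at an adjusted p under 0.05, with ratios stabilised by a prior count of 0.5; intervals cover counting error only. Gene pairs used an intercept-only limma 3.58.1 fit with a trend to log2(TPM + 1) over 15113 genes (those averaging 1 TPM or more, and the listed ones), and no p. Both were tested on simulated data. Promoters and motifs came from RefSeq windows, and motifs were searched as exact letters.

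The members, the 15 lists, the pairs and the tests were chosen with earlier results of these data known. The text names all 10 members, the 3 highest genes of a list, listed genes without counts, and genes of the members' clusters; others are marked as chosen after their values were seen. Likeness of pattern was not computed, since 2 libraries of 1 group give no pattern to compare. Alternatives were DESeq2 1.42.0 size factors, total counts, no filter, a pseudocount of 0.1, other units and thresholds, each library alone, and coding transcripts only.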

Additional observations from a re-analysis of the deposited data

How the results depend on the processing

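The call of the library ratio of each of the 10 genes was the same with DESeq2 size factors, total counts and no filter. The directions were the same there, in TPM and over coding transcripts only, apart from Hdc, which was not called and turned from 0.01 to -0.00934 with total counts. The number of members at 1 TPM in both libraries was 7, and it was 8 in posterior mean TPM, 7 in FPKM, 9 at 0.5 TPM, 10 at 10 counts in each library and 8 to 9 with each library alone. Coding transcripts only, an alternative chosen after seeing the data, also gave 7; it moved the mean of Prtn3 from 11.4 to 2.90 TPM and of Hdc from 16.5 to 15.2 TPM, and the other 8 by less than their SD. Neighbouring genes whose interval left out 0 numbered 4 of 9, but 2 without a filter on low values, where the intervals widened to -0.12 to 1.39 for Cma1 over Pf4, -0.07 to 1.55 for Cpa3 over Pf4 and -0.13 to 1.10 for Pf4 over Tpsb2. In CPM, which keeps transcript length in the comparison, they numbered 7, Pf4 over Tpsb2 turned to -0.66 and Tpsb2 over Hdc to -0.61, and 4 pairs gained an interval without 0, among them Cpa3 over Cma1 at 0.61. Conditions could not be paired because the 2 replicates form 1 group. The intervals of gene pairs took the 2 genes as independent, although both were measured in the same libraries. No interval was computed from differences within each library. Depth limits Elane, Ms4a2 and Mcpt4 most, at 17 to 143 counts in a library.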

Other observations

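Other granulocytes and lymphocytes were barely seen. None of 11 genes listed for eosinophils and basophils reached 1 TPM in both libraries, and they summed to 4.48 and 4.98 TPM. Mcpt8 at 1.02 ± 0.403 TPM, Epx, eosinophil peroxidase, at 0.845 ± 0.247 TPM and Prg2, the eosinophil major basic protein, at 0.755 ± 0.120 TPM (SD, n = 2) were highest. None of 8 lymphoid genes reached 1 TPM in both libraries either. Cd79a, of the B cell receptor, at 0.70 and 1.11 TPM was the highest of them, and Ncr1, of natural killer cells, had no counts.

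Neighbours of the members outside the mast cell clusters showed a range of levels; these were chosen after their values were seen. Cfd, complement factor D, which lies after Elane, stood at 0.79 and 1.46 TPM. Around Pf4, Cxcl5 stood at 1.10 and 1.14 TPM, Cxcl3 at 0.51 and 0.33 TPM and Cxcl15 at 0.07 and 0.23 TPM, all of them chemokines. Lpo, lactoperoxidase, next to Mpo, stood at 0.03 and 0.05 TPM. Gm11505, annotated as antisense across Mpo, had no counts in either library.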
